A study of Rattus norvegicus with 18 samples.

Results

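The proteasome genes of a rat heart transplant model were followed across 18 expression arrays. They were taken as every gene whose platform symbol begins with Psma, Psmb, Psmc, Psmd, Psme, Psmf or Psmg and a digit, on probe sets that name 1 gene only. A gene with several probe sets was represented by the one with the highest mean over the 18 arrays. This gave 46 members among the 14217 genes of the platform, from 60 probe sets. Of these, 5 are called inducible here (Psmb8, Psmb9, Psmb10, Psme1 and Psme2), 39 are other subunits, cofactors and assembly chaperones, called constitutive here, and 2 (Psmc3ip and Psme3ip1) share the name pattern only, since they encode interacting proteins. Psmb6 and Psme3 lie on probe sets that name several genes and were not analysed here.

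Recipients of the ACI strain were given a second heart, taken from Wistar Furth (WF) donors, in the abdomen, both adult male rats of inbred strains that differ at the class I transplantation antigen RT1.A. The treated groups received oral cyclosporine, a calcineurin inhibitor, at 10 mg/kg/day on days 0 to 2, either together with 1 mg/kg of the allochimeric peptide [a1h1/u]-RT1.Aa into the portal vein at transplantation or alone. The labels call this cyclosporine course below the therapeutic dose. The remaining group was transplanted without treatment, so every group carried a graft from the other strain, and no ungrafted or syngeneic heart was analysed here. Whole grafts and T cells were each profiled on days 1, 3 and 7 with 1 array per treatment and day, 9 arrays per tissue. The T cells carry the strain label Wistar Furth like the grafts, and neither their organ nor their purification is stated, nor whether RNA of several animals was pooled. Values are linear intensities with background already subtracted, and array upper quartiles ran from 728 to 740 in T cells and from 743 to 758 in grafts.

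The proteasome degrades ubiquitin-tagged proteins. Its barrel, the 20S core, is built of alpha rings (Psma), which gate the entrance, and beta rings (Psmb), of which Psmb5, Psmb6 and Psmb7 cut peptide bonds. The 19S cap, with its ATPases (Psmc) and its non-ATPase subunits (Psmd), binds, unfolds and feeds in the substrate. Under interferon gamma, cells build Psmb8, Psmb9 and Psmb10 into new cores in place of Psmb5, Psmb6 and Psmb7, which makes the immunoproteasome. The same cytokine raises PA28, a ring of Psme1 and Psme2 that can cap the core instead of the 19S cap. The peptides released are carried by Tap1 and Tap2 to class I molecules, which show them to CD8 T cells, and lymphoid cells carry much of the inducible form without stimulation.

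The promoters of 4 inducible members and of Psmb5, the constitutive counterpart of Psmb8, are shown because the inducible members moved together in the grafts. Each window holds 250 bases before and 50 bases after the RefSeq gene start on build GRCr8 and is written 5′ to 3′ along the gene. Capitals mark the core of an interferon-stimulated response element, searched on both strands as GAAA, any 2 bases, GAAA. The windows are Psmb8 at chr20:4656982-4657281 (minus strand), Psmb9 at chr20:4668750-4669049 (plus strand), Psmb10 at chr19:50743243-50743542 (minus strand), Psme2 at chr15:33052702-33053001 (minus strand) and Psmb5 at chr15:32047330-32047629 (minus strand).
Psmb8: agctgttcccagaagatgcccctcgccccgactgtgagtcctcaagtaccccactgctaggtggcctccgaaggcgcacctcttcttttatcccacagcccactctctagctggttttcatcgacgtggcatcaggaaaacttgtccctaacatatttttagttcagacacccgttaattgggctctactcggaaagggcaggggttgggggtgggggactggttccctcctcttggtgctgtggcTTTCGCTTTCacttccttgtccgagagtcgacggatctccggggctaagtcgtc
Psmb9: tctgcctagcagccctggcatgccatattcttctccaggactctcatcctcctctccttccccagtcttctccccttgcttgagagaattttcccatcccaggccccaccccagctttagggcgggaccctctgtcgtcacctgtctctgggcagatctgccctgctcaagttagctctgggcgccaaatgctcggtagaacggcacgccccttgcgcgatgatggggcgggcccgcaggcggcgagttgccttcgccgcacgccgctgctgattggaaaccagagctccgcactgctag
Psmb10: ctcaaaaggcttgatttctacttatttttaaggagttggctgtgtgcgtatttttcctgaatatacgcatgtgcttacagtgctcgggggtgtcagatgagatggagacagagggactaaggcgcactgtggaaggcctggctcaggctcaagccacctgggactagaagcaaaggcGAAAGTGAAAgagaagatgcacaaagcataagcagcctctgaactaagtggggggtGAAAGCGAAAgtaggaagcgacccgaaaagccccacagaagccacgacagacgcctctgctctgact
Psme2: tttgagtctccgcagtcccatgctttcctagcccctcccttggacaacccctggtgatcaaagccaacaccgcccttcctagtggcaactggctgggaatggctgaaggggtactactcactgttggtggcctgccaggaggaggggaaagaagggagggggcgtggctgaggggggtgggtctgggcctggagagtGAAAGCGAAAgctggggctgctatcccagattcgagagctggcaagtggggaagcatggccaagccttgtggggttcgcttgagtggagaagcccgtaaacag
Psmb5: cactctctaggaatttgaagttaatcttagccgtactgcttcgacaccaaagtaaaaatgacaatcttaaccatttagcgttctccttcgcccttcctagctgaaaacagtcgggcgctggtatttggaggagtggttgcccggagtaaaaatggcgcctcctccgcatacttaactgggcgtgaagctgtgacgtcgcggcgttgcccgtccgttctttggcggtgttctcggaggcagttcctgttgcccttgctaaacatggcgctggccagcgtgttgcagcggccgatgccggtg

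The core was found in 3 of the 5 inducible members: once in Psmb8, across the gene start, once in Psme2, beginning 53 bases before the start, and at 2 places in Psmb10, beginning 73 and 17 bases before it. It was not among the letters of the Psmb9, Psme1 and Psmb5 windows. The Psme1 window, not printed here, ends in tttcgctt, the letters that begin the Psmb8 match. A match across that edge could not be found by this search. Among the other 37 members with a window it was found in 4, Psma4, Psmb3, Psmd7 and Psmg4, against 3.92% of all 33469 promoters. Psmb9 and Tap1 are neighbours transcribed away from each other, and their windows share 44 bases. The Tap1 window holds 1 match, which lies 336 to 345 bases before the Psmb9 start and so beyond the Psmb9 window. The gamma activated site core, TTC and GAA with any 3 bases between, was found in Psmb8, Psmc6, Psmd3 and Psmd7, against 8.87% of promoters. The antioxidant response element core, TGAC and GC with any 3 bases between, was in 0 of the 5 inducible and 7 of the 37 other windows (Psma3, Psmb2, Psmb5, Psmd1, Psmd3, Psmd9 and Psme4), against 12.1%. A kappa B like core, GGG and CC with any 5 bases between, was in 27 of the 42 member windows, against 47.3% of promoters. In the windows printed, no interferon core match overlaps a match to another of these motifs. On the same assembly the protein-coding genes Tap2, Psmb8, Tap1 and Psmb9 follow each other on chromosome 20, and Psme1, Emc9 and Psme2 on chromosome 15.

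In the grafts, all 5 inducible members were higher on day 7 than on day 1, Psmb9 6.56-fold, Psmb8 5.84-fold, Psmb10 5.06-fold, Psme2 3.22-fold and Psme1 1.46-fold. Psmb5 and Psmb7, whose place Psmb8 and Psmb10 take, did not pass the test. Differences between days were fitted with limma on log2(intensity + 16) as means of 3 same-treatment differences, with Benjamini-Hochberg adjustment over all probe sets tested and calls at an adjusted p below 0.05. The p-values are measured against the spread left after the additive fit of treatment and day. With 1 array per combination, that spread mixes treatment differences that vary by day with differences between animals and technical ones. Of the 46 members, all of which passed the filter on dim probe sets, 16 were called higher, against 30.9% of the 19737 probe sets tested, and 8 were called lower, against 33.8%. The members' median difference was 0.001 on the log2 scale, against -0.02 over all probe sets tested.

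**Figure D1:**
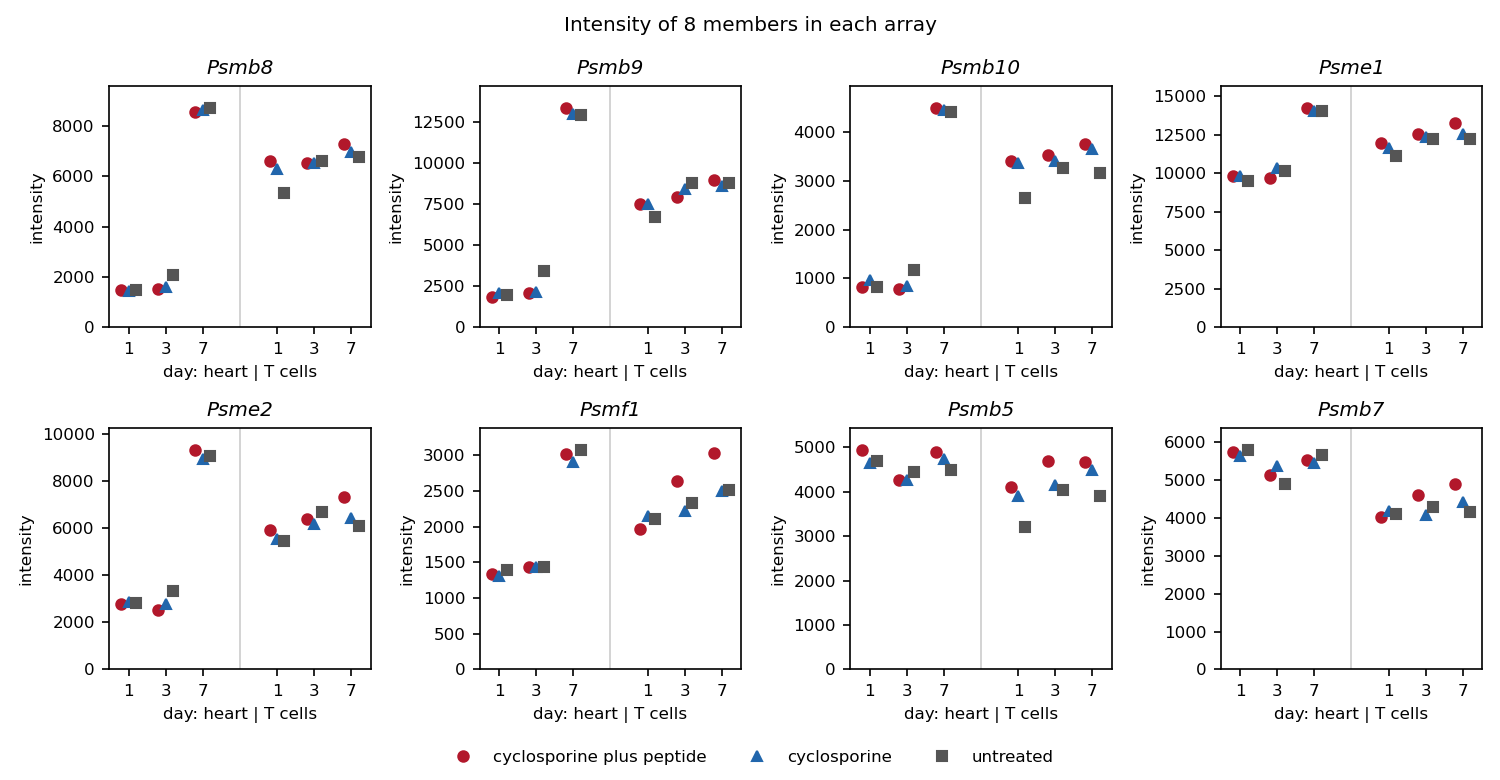
Intensity (vertical axis, linear, from 0) of 8 members in each of the 18 arrays, by day after transplantation, heart grafts left of the grey line and T cells right of it; marker and colour give the treatment and each point is 1 array. The inducible members and Psmf1 stand high in the 3 day 7 grafts, Psmb8 between 8537 and 8704 against 1455 to 1474 on day 1, while Psmb5 lies between 4264 and 4943 in all 9 grafts.

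Psmb9, the inducible counterpart of Psmb6, read 1862, 2110 and 1974 in the 3 day 1 grafts, 2074, 2150 and 3427 on day 3 and 13338, 12980 and 12881 on day 7. Within each day the values are those of the cyclosporine plus peptide, the cyclosporine and the untreated recipient, here and for the other members. Every day 7 graft lay far above every earlier graft. The log2 difference of day 7 from day 1 was 2.71 ± 0.15 (SE, adjusted p by limma 4.2e-06). Psmb8, the counterpart of Psmb5, read 1461, 1455 and 1474 on day 1, 1524, 1598 and 2082 on day 3 and 8537, 8639 and 8704 on day 7. Its 3 same-treatment differences were nearly equal, between 2.53 and 2.56 on the log2 scale, with a fitted difference of 2.55 ± 0.09 (SE). Psmb10, the counterpart of Psmb7, read 815, 965 and 825 on day 1, 775, 844 and 1163 on day 3 and 4488, 4444 and 4401 on day 7. The groups of day 1 and day 7 did not overlap in any of the 3 genes, and on day 3 the highest value was in each case that of the untreated recipient. Here and below, the share of all probe sets without overlap between days is not given. Such a lack of overlap therefore only describes the values.

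The 2 PA28 genes differed in size of change. Psme2 read 2767, 2865 and 2834 in the day 1 grafts, 2511, 2778 and 3348 on day 3 and 9335, 8960 and 9097 on day 7, a log2 difference of 1.69 ± 0.08 (SE) from day 1. Psme1 was bright throughout, at 9830, 9799 and 9475 on day 1, 9673, 10369 and 10168 on day 3 and 14252, 14076 and 14072 on day 7, a difference of 0.54 ± 0.04 (SE). All 3 day 7 grafts were above all 6 earlier ones for both genes.

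Psmf1 encodes PI31, named as a proteasome inhibitor from its action on the purified core. It read 1336, 1315 and 1397 on day 1, 1442, 1430 and 1432 on day 3 and 3021, 2912 and 3078 on day 7. Its day 7 difference of 1.15 ± 0.05 on the log2 scale (SE) was above that of every other constitutive member. Psme4, the other activator measured (PA200), read 2567, 2603 and 2365 on day 1, 2345, 2237 and 2438 on day 3 and 2350, 2459 and 2822 on day 7, and its day 7 difference of 0.02 ± 0.08 (SE) did not pass. A second, dimmer Psme4 probe set was called lower, at -0.47 ± 0.06 (SE), and the remaining one gave -0.02 ± 0.08, so the 3 do not give 1 answer.

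Of the catalytic subunits that the inducible ones replace, Psmb5 and Psmb7 were measured here, and neither was called between any 2 days. Psmb5 read 4943, 4647 and 4699 on day 1, 4265, 4264 and 4440 on day 3 and 4894, 4749 and 4496 on day 7. Psmb7 read 5747, 5629 and 5801 on day 1, 5126, 5382 and 4904 on day 3 and 5526, 5454 and 5663 on day 7. All day 3 grafts lay below all day 1 grafts for both, with log2 differences of -0.14 ± 0.05 and -0.16 ± 0.05 that did not pass (SE, adjusted p by limma 0.073 and 0.051). Day 1 and day 7 overlapped for both, with differences of -0.02 ± 0.05 and -0.05 ± 0.05 (SE). After quantile normalization, over all arrays or within the tissue, Psmb7 was called lower at -0.13. Within each array, Psmb8 over Psmb5 stood 0.22 to 0.60 above the day 1 mean of the grafts on day 3 and 2.49 to 2.64 above it on day 7, on the log2 scale. Psmb10 over Psmb7 stood 0.003 to 0.64 above it on day 3 and 2.34 to 2.41 on day 7. In T cells both ratios stayed between -0.23 and 0.15 on all days. A ratio of 2 probe sets shows unequal change and not how much of each subunit is present.

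**Figure D2:**
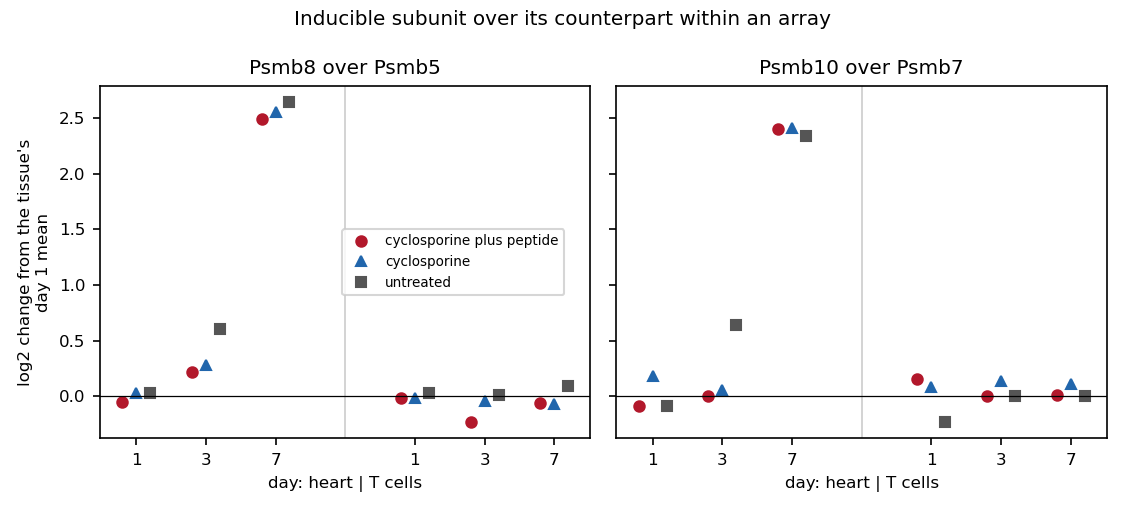
Change of the within-array log2 ratio of Psmb8 over Psmb5 (left) and of Psmb10 over Psmb7 (right) from the day 1 mean of the tissue, by day, with 1 point per array and the treatment as marker. The 3 day 7 grafts lie between 2.34 and 2.64, the 9 T cell arrays between -0.23 and 0.15, and on day 3 the untreated graft is above both treated ones.

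The other subunits of the core changed less. Of the 13 constitutive core members, 7 were called higher on day 7 than on day 1 (30.9% of all probe sets) and 0 lower (33.8%). Past an unadjusted p of 0.05 were 8 of the 13, and 13469 of the 19737 probe sets tested. The median difference of the 13 was 0.18 on the log2 scale. The alpha ring gave 4 of its 7 members. Psma5 read 3747, 3930 and 4390 on day 7, against 2826, 2689 and 2656 on day 1, a difference of 0.56 ± 0.07 (SE). Psma7 read 6124, 6138 and 6172, against 4535, 4490 and 4398, a difference of 0.46 ± 0.04 (SE). Neither gene's groups overlapped. Psma2 (0.32) and Psma4 (0.29) rose less. In the beta ring Psmb2 (0.42), Psmb3 (0.31) and Psmb4 (0.18) rose. The remaining 6, Psma1, Psma3, Psma6, Psmb1, Psmb5 and Psmb7, ranged from -0.05 to 0.10 and did not pass.

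The 19S cap is counted here and below as all Psmc and Psmd members but Psmc3ip, assembly chaperones such as Psmd5 and Psmd9 included. Of these 20 members, 6 were called lower on day 7, near the share of all probe sets (33.8%), and 3 higher (30.9% of all probe sets). Their median was -0.11, against -0.02 over all probe sets, and 16 of the 20 differences were below 0. No ATPase was called higher: Psmc5 fell by 0.27 ± 0.05 and Psmc6 by 0.21 ± 0.08 on the log2 scale (SE), and the other 4 lay between -0.13 and -0.01. Psmc5 read 2628, 2646 and 2647 on day 7, against 3183, 3302 and 3075 on day 1, without overlap. Among the non-ATPases, Psmd6 (-0.36), Psmd3 (-0.30), Psmd12 (-0.29) and Psmd7 (-0.19), which sit in the lid of the cap, were lower. Psmd13 (0.27), another lid subunit, Psmd9 (0.21), an assembly chaperone of the cap, and Psmd14 (0.16), the enzyme that removes ubiquitin chains, were higher. Some of these calls were narrow: of 23 alternatives, Psmc6 lost its call in 13, Psmd9 in 8, Psmd12 in 6 and Psmd7 in 2, and Psmc5 in 0. Of the 3 Psmd14 probe sets, 1 gave -0.16 and did not pass. Of the chaperones that assemble the core, Psmg2 fell by 0.28 ± 0.06 (SE), while Psmg1, Psmg3 and Psmg4 ranged from -0.10 to 0.05 and did not pass.

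**Figure D3:**
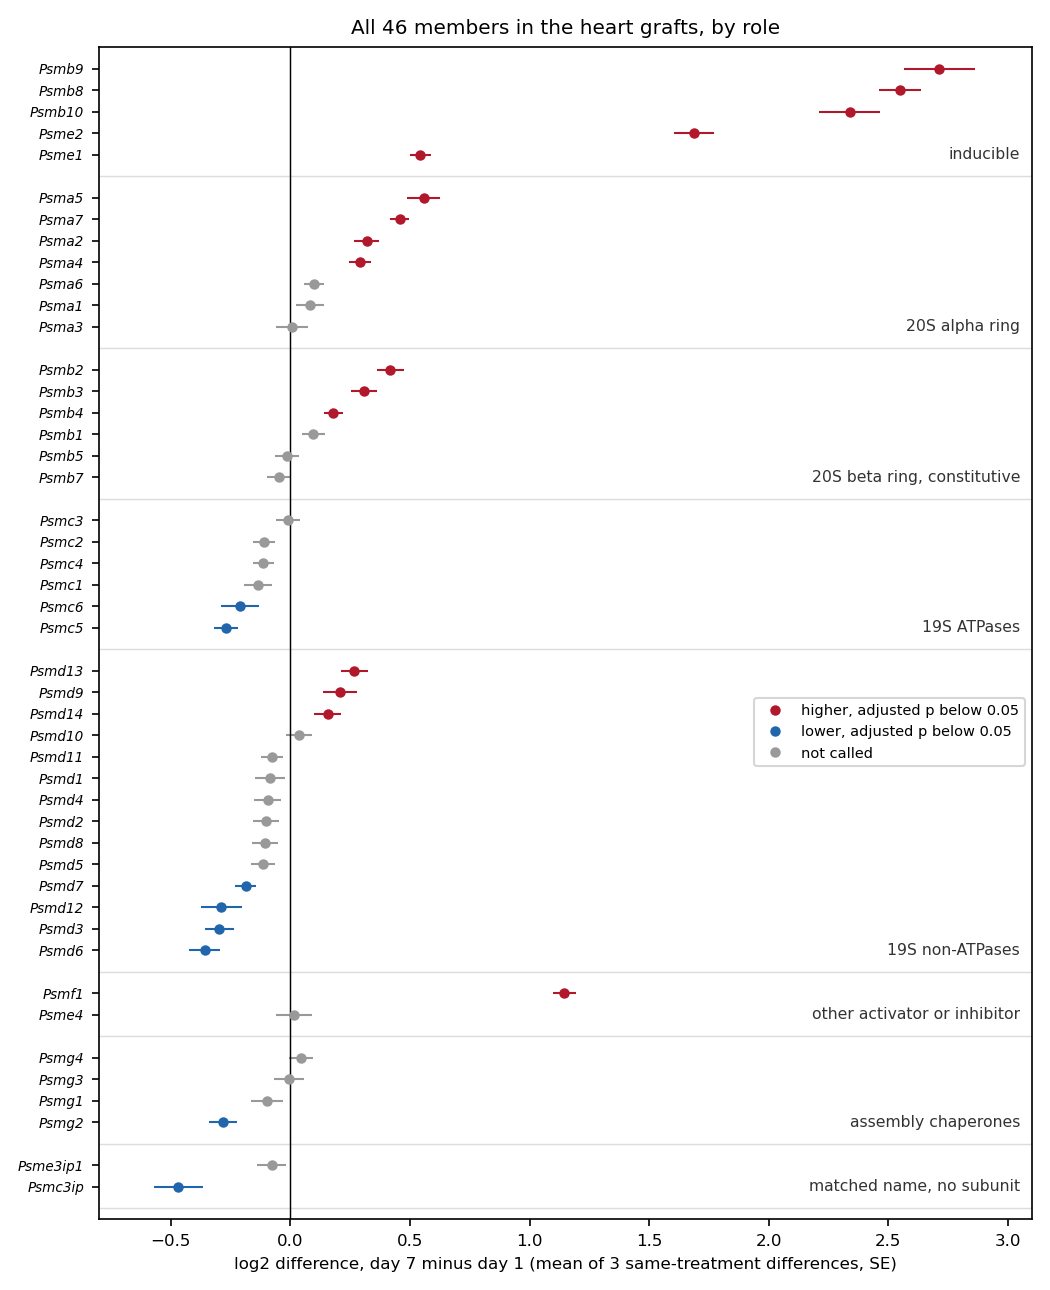
Log2 difference of day 7 from day 1 in the heart grafts (horizontal axis, means of 3 same-treatment differences with their standard errors) for all 46 members, grouped by role; red and blue mark calls at an adjusted p below 0.05. The 5 inducible members and Psmf1 lie between 0.54 and 2.71, the constitutive core between -0.05 and 0.56 and the 19S cap between -0.36 and 0.27.

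Quantile normalization left the higher calls at 15 and raised the lower ones to 13 (over all arrays) or 14 (within the tissue), against 16 and 8 as deposited. The array of the untreated day 1 graft was high for Psmd6 at 6631, against 5478 and 5534 in the treated day 1 grafts. Without it Psmd6 was still called lower on day 7, at -0.27. All 5 inducible members and Psmf1 kept their calls in each of 23 alternative settings, with Psmb9 between 2.60 and 2.84 and Psme1 between 0.52 and 0.64.

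Transcripts of infiltrating cells moved with the same days. The summed intensity of 12 T cell markers was 21629 to 26639 in the day 7 grafts, against 1601 to 2633 on day 1, and 11 of the 11 tested were called higher. For 9 macrophage markers the sum was 55878 to 59273, against 14543 to 15299, with 8 of 9 higher, and for 7 genes of dividing cells it was 7610 to 9398, against 1784 to 3055, with 7 of 7 higher. The 6 neutrophil markers went the other way, with a sum of 1529 to 2414 on day 7, against 5110 to 11859 on day 1, and 5 of 6 called lower. The sum of 5 endothelial markers was 4089 to 5197, against 9185 to 9952, with 5 of 5 lower, and of 9 heart muscle markers 5 were lower and 1 higher. Some T cell markers were dim before day 7, with Trat1 at or below 50 in every day 1 and day 3 graft. Such markers may have passed the filter through the day 7 grafts alone. Where they did, a higher call was likely in advance. In whole tissue, more cells of a type and more RNA per cell cannot be told apart. The ratio of 3' to 5' signal of the beta-actin control probe sets, an index of RNA integrity, was 1.41 to 1.43 on day 7, against 1.84 to 2.44 on day 1, while that of Gapdh lay between 1.45 and 1.65 in all 18 arrays. The part of cell composition and RNA quality in the members' differences was not tested.

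Genes of class I presentation and interferon gamma signalling were higher along with the inducible subunits. Of a list of 24 genes, 21 have a probe set, and 19 of these 21 were called higher on day 7 and 0 lower, against 30.9% and 33.8% of all probe sets, with a median of 1.72. Ifng itself, the cytokine, read 389, 393 and 478 on day 7, against 50, 59 and 64 on day 1, a log2 difference of 2.56 ± 0.14 (SE). Irf1, a transcription factor that interferon gamma induces, differed by 2.28 ± 0.21 (SE). Tap1, the peptide transporter beside Psmb9, read 3602, 3800 and 3549, against 269, 434 and 299, a difference of 3.42 ± 0.26 (SE). Larger still were Ubd, a ubiquitin-like modifier that targets proteins to the proteasome, at 6.35 ± 0.42, and Socs1, an inhibitor of cytokine signalling, at 4.16 ± 0.34 (SE). Gbp2 (3.01) and Nlrc5 (2.64), an activator of class I genes, were also higher. Dim on day 1 were Ifng, Socs1 (48, 66 and 59), Ubd (97, 214 and 128) and Nlrc5 (118, 145 and 121). Each lay below the median of its array, 210 to 218. Socs1 read 238 in the untreated graft of day 3. Ifng, Socs1 and Nlrc5 may have passed the filter through the day 7 grafts alone.

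A second list of 30 genes for proteasome assembly, ubiquitin handling and proteasome gene regulation, 24 of them measured, gave 6 higher and 10 lower calls with a median of -0.05, against 30.9% and 33.8% of all probe sets. Pomp, the chaperone that completes new cores, rose by 0.38 ± 0.05 on the log2 scale (SE), to 7416, 6901 and 7513 on day 7, against 5414, 5602 and 5786 on day 1. Nfe2l1, the transcription factor that restores proteasome genes when proteasome activity is short, fell by 0.35 ± 0.08 (SE). Nfe2l2, the regulator of antioxidant genes, rose by 0.48 ± 0.05 (SE). Zfand2a (1.00) and Uba1 (0.37), the enzyme that activates ubiquitin, were also higher, and Ufd1 (-0.43), Ubqln2 (-0.41) and Bag6 (-0.35) were lower.

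Averaged over treatments, day 3 grafts differed little from day 1 grafts in the inducible members. In the untreated graft Psmb9 read 3427 on day 3, against 1974 on day 1, Psmb8 2082 against 1474 and Psmb10 1163 against 825. In the treated grafts Psmb9 read 2074 and 2150, against 1862 and 2110, and Psmb8 1524 and 1598, against 1461 and 1455. Psmb10 read 775 and 844 there, against 815 and 965. Each of these compares 1 array with 1 array. The fitted log2 differences of the inducible members ran from 0.02 for Psme2 to 0.32 ± 0.15 for Psmb9 (SE). Of the 5, 0 were called by limma, and 1, Psmb8, had an unadjusted p below 0.05. Over all members 17 were past an unadjusted p of 0.05, as were 8088 of the 19737 probe sets tested. The member calls were 0 higher, against 14.6% of the probe sets tested, and 9 lower, against 12.9%. The 9 were Psme3ip1 (-0.40), Psmc3ip (-0.35), the cap subunits Psmd6 (-0.35), Psmd3 (-0.25), Psmd8 (-0.22), Psmc4 (-0.22) and Psmc1 (-0.18), the cap chaperone Psmd5 (-0.21) and the core chaperone Psmg2 (-0.34). The count rested on single arrays: it was 3 without the cyclosporine plus peptide graft of day 1, 5 without the cyclosporine graft of day 1, and 4 without the untreated graft of day 1 or of day 3. Macrophage markers were called higher in 8 of 9 and genes of dividing cells in 7 of 7 at this time, and T cell markers in 0 of 11.

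Between day 3 and day 7, 20 members rose, against 26.9% of probe sets, and 1, Psmc5, fell by 0.26 ± 0.05 on the log2 scale (SE), against 29.4%. The lower calls were 3 without the untreated graft of day 3 or of day 7. Psmb9 (2.39), Psmb8 (2.32), Psmb10 (2.26), Psme2 (1.67), Psmf1 (1.06) and Psme1 (0.49) were all called higher. Of the constitutive core, 9 of 13 rose, led by Psmb2 (0.51) and Psma5 (0.50). The comparisons of day 7 with day 1 and with day 3 share the day 7 arrays.

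In T cells no inducible member was called between any 2 days. Psmb8 read 6617, 6284 and 5317 in the day 1 T cells, 6512, 6531 and 6613 on day 3 and 7281, 6952 and 6767 on day 7. Psmb9 read 7497, 7510 and 6699 on day 1, 7935, 8383 and 8802 on day 3 and 8974, 8583 and 8754 on day 7. The day 7 values were above the day 1 values in both genes, but by little. The log2 differences of 0.21 ± 0.07 and 0.28 ± 0.07 (SE) did not pass in limma, with adjusted p = 0.15 and 0.089. Psmb10 read 3397, 3370 and 2650 on day 1, 3518, 3396 and 3266 on day 3 and 3745, 3648 and 3164 on day 7, with overlap. Psme1 ranged from 11125 to 13304, Psme2 from 5445 to 7317 and Psmf1 from 1973 to 3037 over the 9 T cell arrays. Psmb5 ranged from 3199 to 4700 and Psmb7 from 4020 to 4904.

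Day 7 against day 1 in T cells gave 0 member calls in limma, against 0.575% of 19464 probe sets in either direction. An unadjusted p below 0.05 was found in 17 of the 46 members, and in 4654 of the 19464 probe sets. Of the 46 differences 42 were above 0 (median 0.14, against 0.03 over all probe sets). With 1 spread shared by all 18 arrays, 7 members were called higher, among them Psmf1 (0.36), Psmb5 (0.22) and Psme1 (0.13). The share of all probe sets called in that setting is not given here, and 0.575% belongs to the main fit. Day 3 against day 1 and day 7 against day 3 gave 0 calls among members and 0% of probe sets. Past an unadjusted p of 0.05 were 6 and 0 members, and 1615 and 1050 of the 19464 probe sets. The T cell array of the untreated recipient on day 1 was low for many members, as for Psmb5 at 3199, against 4117 and 3902 in the T cells of treated recipients that day. The same array had a summed intensity of 38056 for 6 neutrophil markers, against 1157 and 2474, and of 55251 for 12 T cell markers, against 75496 and 77932. Without it the count in T cells stayed at 0.

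The day 7 difference in grafts exceeded that in T cells for all 5 inducible members. This interaction was tested in 1 fit over the 18 arrays and was 2.43 ± 0.18 for Psmb9, 2.34 ± 0.12 for Psmb8, 2.17 ± 0.16 for Psmb10, 1.46 ± 0.11 for Psme2 and 0.41 ± 0.06 for Psme1, on the log2 scale (SE). Psmf1 (0.78) and Psma7 (0.32) were the other 2 of the 7 higher calls, against 23.5% of 22327 probe sets. Of the members, 14 were called lower, against 23.2%, 8 of them in the 19S cap and 3 among the 4 core chaperones. The largest of these were Psmc3ip (-0.73), Psmd6 (-0.51) and Psmg1 (-0.42), with Psmb5 at -0.24. The lower calls rested on few arrays, with 7 to 17 calls on leaving out single arrays and 1 without the 6 cyclosporine plus peptide arrays. Single arrays whose omission left 9 or fewer were the day 1 graft and T cells of cyclosporine plus peptide, both its day 7 arrays, both cyclosporine day 7 arrays and the untreated day 1 graft.

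**Figure D4:**
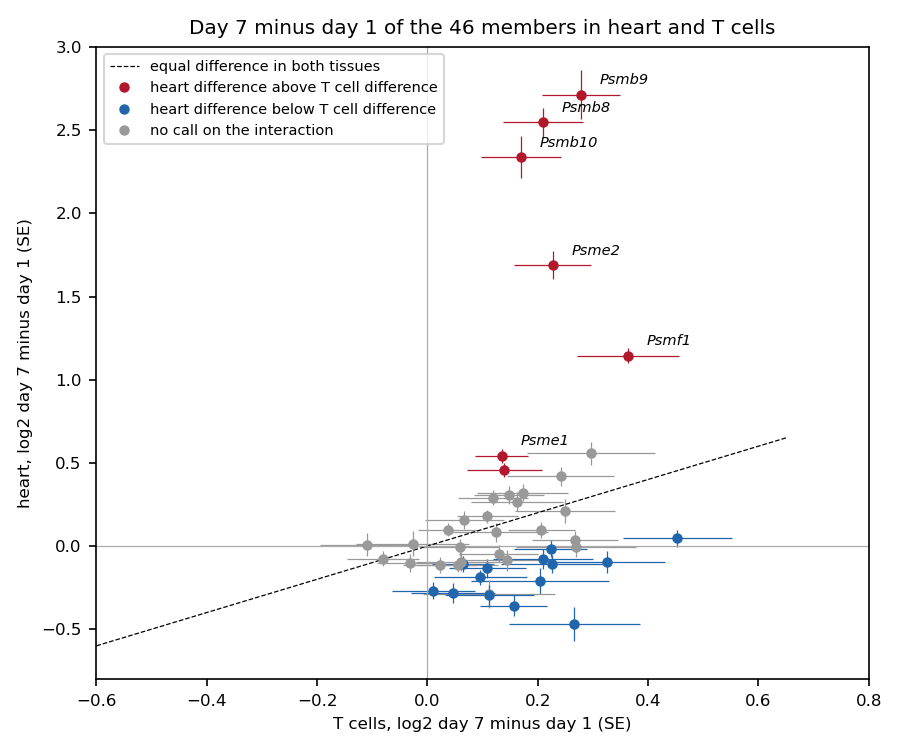
Log2 difference of day 7 from day 1 in heart grafts (vertical axis) against that in T cells (horizontal axis) for the 46 members, with standard errors; the dashed line marks equal differences, and red or blue marks members whose graft difference was called above or below that of T cells. The T cell differences lie between -0.11 and 0.45, while the 5 inducible members and Psmf1 reach 0.54 to 2.71 in grafts.

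Averaged over days, all 5 inducible members were called higher in T cells than in grafts, Psme1 only narrowly, but the order turned between day 3 and day 7. On days 1 and 3 together, the 6 T cell arrays lay above the 6 grafts for 5 of 5 inducible members without overlap, as did 30.8% of all 31042 probe sets. On day 7 the 3 T cell arrays lay below the 3 grafts for 5 of 5, as did 27.3% of probe sets. For Psmb9 the day 7 T cells read 8583 to 8974, against 12881 to 13338 in grafts, and the day 1 T cells 6699 to 7510, against 1862 to 2110. The fitted differences of T cells from grafts were 1.22 ± 0.28 for Psmb8, 1.12 ± 0.28 for Psmb10, 1.01 ± 0.30 for Psmb9, 0.56 ± 0.19 for Psme2 and 0.13 ± 0.06 for Psme1, on the log2 scale (SE). Over all probe sets the median was 0.15, above the value of Psme1. Only 6 of the 9 same-day, same-treatment differences were above 0 for each of the 5 genes. The Psme1 call, at an adjusted p of 0.046 by limma, was lost in 20 of 34 alternatives, among them the fit with a block for each of the 9 day and treatment combinations (adjusted p by limma 0.095). The Psme2 call was lost in 4 and those of Psmb8, Psmb9 and Psmb10 in 2. All 5 were lost without the day 1 arrays, with Psmb8 at 0.81 (adjusted p by limma 0.057), or without the day 3 arrays, with Psmb8 at 0.87 (0.058). Without the day 7 arrays Psmb8 stood at 1.98, Psmb10 at 1.85 and Psmb9 at 1.80. The T cell arrays also carried markers of other cells. Their sum of 9 macrophage markers was 27337 to 44957, against 14543 to 15299 in the day 1 grafts and 55878 to 59273 on day 7. Their sum of 3 B cell markers was 6143 to 20888, against 121 to 540 in the grafts. The part of these cells in the levels of the T cell arrays was not tested.

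Among the constitutive members, those of the cap read lower in T cells. Over all members 14 were called higher in T cells, against 47.9% of the 22327 probe sets tested, and 21 lower, against 35.5%. All probe sets had a median difference of 0.15, so members are read against that shift, which was 0.22 after quantile normalization over all arrays and 0.25 after median centring. Of the 20 cap members 14 were lower (35.5% of all probe sets) and 2 higher (47.9%), with a median of -0.25 on the log2 scale. Psmd1, the scaffold of the cap, read 769 to 954 in T cells, against 1329 to 1536 in grafts, without overlap, a difference of -0.71 ± 0.05 (SE). Psmd12 (-0.65), Psmd8 (-0.57), Psmc1 (-0.55), Psmd7 (-0.48), Psmc5 (-0.46) and Psmd2 (-0.38) followed. Psme4 was lower at -0.56 ± 0.05 (SE), and both its other probe sets were lower too, at -1.42 and -0.64. Psmd13 (0.33) and the cap chaperone Psmd5 (0.15) were the 2 of the 20 called higher in T cells, Psmd5 no further than the median of all probe sets. Psmc4 and Psmd9, not called here, each have a dimmer probe set that was called higher in T cells, at 0.83 and 0.66. The other probe sets of Psmc6 and Psmd7 were called lower, and those of Psmd11 and Psmd14 were not called or not tested.

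Of the 13 constitutive core members, 5 were higher in T cells and 4 lower (median 0.02), neither above the share of all probe sets (47.9% and 35.5%). Psmb3 (0.45), Psma2 (0.25), Psmb1 (0.24), Psma7 (0.18) and Psmb4 (0.14) were higher. Against the median of 0.15 over all probe sets, Psma7 lay little above and Psmb4 below. Psmb7 (-0.34), Psma5 (-0.23), Psmb5 (-0.16) and Psma6 (-0.10) were lower. Psmb5 turned to 0.25 when its 3 probe sets were averaged, of which 2 were too dim for the filter. Psmf1 (0.39) was higher in T cells, and Psmg3 (-0.48) and Psmg4 (-0.23) lower. Median centring gave 18 higher and 13 lower members, and quantile normalization over all arrays 18 and 18, against 14 and 21 as deposited. Nfe2l1 differed by -1.16 ± 0.08 and Pomp by -0.27 ± 0.06 on the log2 scale (SE), both lower in T cells.

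No member was called for any treatment. In grafts, limma gave 0 calls among the 46 members and 0% of probe sets in every treatment comparison. These were cyclosporine plus peptide against untreated, cyclosporine against untreated and cyclosporine plus peptide against cyclosporine. Past an unadjusted p of 0.05 were, in that order, 3156, 2288 and 954 of the 19737 probe sets, and 1, 1 and 0 members. That 1 member was Psmd8, with log2 differences of -0.27 ± 0.05 and -0.25 ± 0.05 (SE), whose untreated day 1 graft was high at 3717, against 2875 and 2968 in the treated day 1 grafts. Its single differences were below 0 on the other days too, at -0.24 and -0.27 on day 3 and -0.19 and -0.14 on day 7. The inducible members' differences over the 3 days ran from -0.25 to -0.0002 for cyclosporine plus peptide and from -0.19 to 0.03 for cyclosporine.

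The days differed in this. On day 3 the graft with cyclosporine plus peptide read 1524 for Psmb8 and that with cyclosporine 1598, against 2082 in the untreated graft. For Psmb9 the values were 2074 and 2150, against 3427, for Psmb10 775 and 844, against 1163, and for Psme2 2511 and 2778, against 3348. The 5 inducible members had a median log2 difference from the untreated graft of -0.45 with cyclosporine plus peptide, with 5 of 5 below it, and of -0.38 with cyclosporine, with 4 of 5 below it and Psme1 above. The 39 constitutive members had medians of -0.02 and 0.04. On day 7 the inducible medians were 0.03 and 0.0004, and on day 1 -0.02 and 0.05. Tap1 on day 3 read 338 and 319, against 711, Irf1 1939 and 1607, against 3219, and Ifng 45 and 50, against 88. Ifng was dim in these grafts, below the array medians of 216 to 231, so its difference says little. Marker sums of these grafts also differed, with neutrophil markers at 6099 and 5830, against 12321 in the untreated graft, T cell markers at 2102 and 2006, against 3017, dividing cells at 4951 and 5533, against 7169, and macrophage markers at 25074 and 22508, against 28984. The part of cell composition in the day 3 differences was not tested. Each of these compares 1 array with 1 array, so there is no test. In the additive fit over the 3 days, a treatment difference that varies by day adds to the spread.

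**Figure D5:**
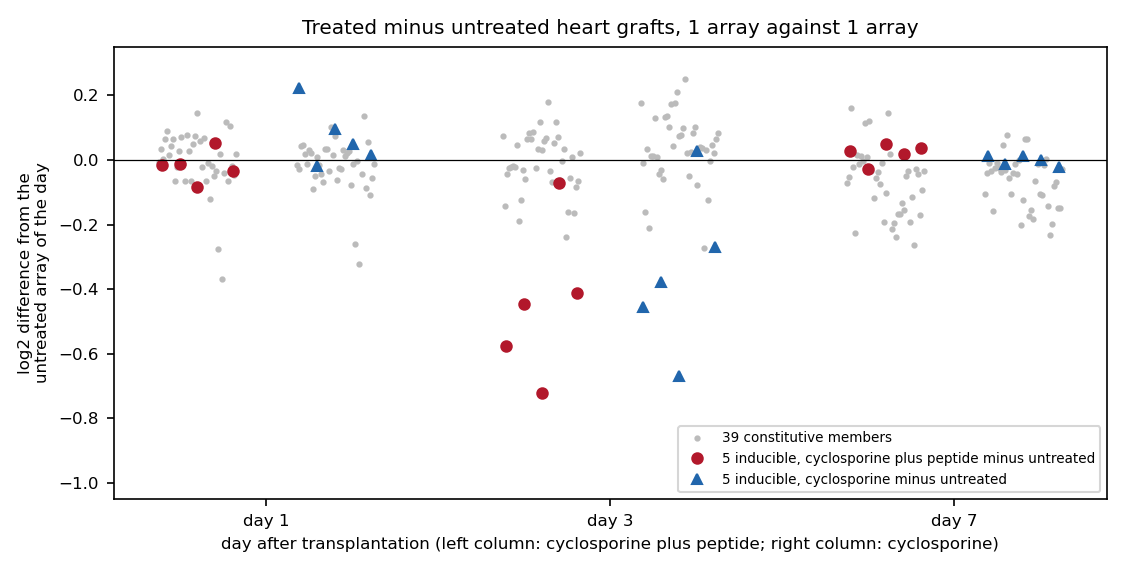
Log2 difference of the treated from the untreated graft of the same day, 1 array against 1 array, on days 1, 3 and 7; in each day the left column is cyclosporine plus peptide and the right column cyclosporine, with grey points for the 39 constitutive members. On day 3 the inducible members reach -0.72 and -0.67, and on day 7 they lie between -0.03 and 0.05.

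In T cells the treatments also gave 0 member calls in limma and 0% of probe sets. Past an unadjusted p of 0.05 were 14 members for cyclosporine plus peptide against untreated, and 4636 of the 19464 probe sets. The member count was 5 for cyclosporine against untreated (2216 probe sets) and 1 for cyclosporine plus peptide against cyclosporine (857 probe sets). With cyclosporine plus peptide 41 of 46 members lay above untreated, with a median of 0.13 on the log2 scale, against 0.02 over all probe sets. Psmb5 differed most clearly, at 0.28 ± 0.07 (SE, adjusted p by limma 0.12), with all 3 days above 0, followed by Psmg3 at 0.37 ± 0.11 and Psmd9 at 0.31 ± 0.09. Psmb5 read 4117, 4700 and 4681 on days 1, 3 and 7 with cyclosporine plus peptide, 3902, 4147 and 4501 with cyclosporine, and 3199, 4030 and 3894 untreated. The count of higher calls was 9 with 1 spread shared by all 18 arrays, 6 without the day 1 arrays, 3 without the cyclosporine plus peptide array of day 1 and 0 without the untreated array of day 1. The shares of all probe sets called in these settings are not given here. The inducible members ranged from 0.02 for Psmb9 to 0.24 for Psmb10.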

How the data were processed

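RNA of 9 heart allografts and 9 T cell samples was measured on 18 rat arrays, 1 per tissue, treatment and day. The deposited values are linear intensities, summarised by probe set. Per the labels' protocols, total RNA was amplified and biotin-labelled with an Enzo kit. Software and normalization: not given in the sources used here. As 0.138% of intensities are negative, some background subtraction preceded deposit. Precision is limited by how few arrays there are.

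Intensities below 0 were set to 0 and used as log2(intensity + 16) as they stood. The offset of 16 shrinks log2 differences of dim genes. Besides 57 control probe sets, which were not used, there are 31042, of which 20826 name 1 gene, 436 several and 9780 none in the platform annotation. The Entrez identifiers of all 46 members matched the reference gene table, with 0 symbols changed. Testing required an intensity over the array's 40th percentile on 3 or more arrays. limma 3.58.1 in R 4.3.3 was used with lmFit and eBayes with a trend, and Benjamini-Hochberg adjustment over all probe sets tested. Within a tissue, treatment and day were fitted as factors to 9 arrays (4 residual degrees of freedom). T cells were compared with grafts over 18 arrays (12), and the tissue by day 7 term was tested with 8. The fits were tested on simulated data. The members, lists and named genes were chosen with earlier results of these data known. Named were the inducible members, Psmb5, Psmb7, Psme4 and Psmf1 in any case, then up to 8 called members per comparison and direction by size, and up to 4 genes per pathway list and direction, with Ifng, Irf1, Tap1, Nfe2l1 and Pomp in any case. Others, named to complete a class, were chosen after their values were seen. Promoters are RefSeq's, on GRCr8, and 42 of the 46 members have one. Alternatives were scaling, pseudocount, filter, probe set rule, prior, shared spread, and arrays, days or treatments left out, with a block for day and treatment combinations added later.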

Additional observations from a re-analysis of the deposited data

Results flagged for a closer look

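The difference of day 7 from day 1 was not the same in grafts and T cells for 16 of the named members, by the interaction term of the fit over 18 arrays. Some of these were named because this same term called them, so the 16 is partly set by the naming. Over all 46 members 7 were called higher and 14 lower, against 23.5% and 23.2% of 22327 probe sets. The graft difference was above the T cell difference on the log2 scale by 2.43 for Psmb9, 2.34 for Psmb8, 2.17 for Psmb10, 1.46 for Psme2, 0.78 for Psmf1, 0.41 for Psme1 and 0.32 for Psma7. The graft minus T cell value was -0.73 for Psmc3ip, -0.51 for Psmd6, -0.42 for Psmg1, -0.41 for Psmc6, -0.41 for Psmd3, -0.41 for Psmg4, -0.33 for Psmd8, -0.33 for Psmg2 and -0.24 for Psmb5. The inducible members and Psmf1 rose in grafts, while the core chaperones Psmg1 and Psmg4 had T cell differences of 0.32 and 0.45, which did not pass on their own. No group holds more than 1 array, so single arrays were not tested as outliers within a group.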

How the results depend on the processing

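Over all settings, 4339 comparisons of a gene's value with its main value kept direction and side of the threshold, 162 lost the call, 23 gained one, 126 moved without a call and 1 reversed: Psmb5 in T cells against grafts, at 0.25 with the mean over all its probe sets, against -0.16. Counts of called members moved as follows, with the shares of all probe sets called in these settings not given. Day 7 against day 1 in grafts gave 13 lower calls with quantile normalization over all arrays, 14 within the tissue, 5 without the cyclosporine arrays and 4 without the cyclosporine plus peptide arrays, against 8, and 6 to 10 without single arrays. Day 3 against day 1 gave 17 lower with median centring, 4 without cyclosporine and 1 without cyclosporine plus peptide, against 9, and 3 to 12 without single arrays. Day 7 against day 3 gave 0 lower without cyclosporine and 3 without untreated arrays, against 1, and 1 to 3 without single arrays. T cells day 7 against day 1 gave 7 higher with a shared spread, and cyclosporine plus peptide against untreated T cells gave 9 with a shared spread, 6 without day 1 arrays and 0 to 3 without single arrays, against 0 in both. T cells against grafts gave 8 higher without day 1 and 5 without day 3 arrays, against 14, and 13 lower with median centring, against 21. The interaction gave 9 lower with no trend in the prior, 9 without day 3, 8 without cyclosporine, 1 without cyclosporine plus peptide and 9 without untreated arrays, against 14, and 7 to 17 without single arrays. Where only the samples were fewer, the fit had fewer degrees of freedom, and in the others the cause was not tested. Replicate numbers pair nothing here, with 1 array per combination. A block of the 9 day and treatment combinations, added after seeing the data, paired graft and T cell arrays and gave 13 higher and 19 lower, against 14 and 21. Of the named members Psme1 alone lost its call in that pairing, at 0.13 (adjusted p by limma 0.095). Dim probe sets limit little here, since all 46 members passed the filter.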
